A study of Mus musculus with 12 samples.

Results

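The genes described are 8 genes of lymphoid progenitors, Ly6d, Il7r, Cd7, Cd34, Tcf7, Gata3, Dntt and Rag1, taken by gene name from a table of 55322 genes measured by RNA-seq in mouse splenic type 2 conventional dendritic cells (cDC2), cells that present antigen to CD4 T cells. Every mouse had received 5 mg/kg of lipopolysaccharide (LPS), a component of the bacterial outer membrane, into the peritoneal cavity, and the spleens were taken 4 days later. There were 12 libraries in 4 groups of 3, and the purpose stated for the series is to see how similar CLP-derived cDC2 and L-cDC2 are. L-cDC2 were tdTomato-positive and M-cDC2 tdTomato-negative cells from Il7r-cre; Rosa26-lsl-tdTomato mice, in which Cre made under the control of Il7r removes a stop sequence and leaves the cell and its progeny red. The mark thus records Il7r activity at any time in a cell's ancestry, and both groups come from mice carrying the Cre allele. CLP-cDC2 and CDP-cDC2 were CD45.2 cells that arose after common lymphoid progenitors (CLPs) or common dendritic cell progenitors (CDPs) of wild-type C57BL/6J mice were injected into the marrow of CD45.1 B6.SJL hosts, which kept their own blood cells. The labels give an age of 7 to 8 weeks for the mice and do not tie each replicate of a group to its own animal. The p-values therefore describe the spread among these libraries, part of which may be technical.

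Common lymphoid progenitors of the bone marrow are defined by the interleukin-7 receptor alpha chain, which Il7r encodes and which signals through the common gamma chain, the kinases Jak1 and Jak3 and the factor Stat5. As they commit to lymphoid fates they take up Ly6d, a small surface protein held by a lipid anchor, and begin to express Rag1, which cuts the antigen receptor genes, and Dntt, the terminal transferase that adds bases at the cut ends. Tcf7 and Gata3 are transcription factors needed for the early steps of T cell and innate lymphoid development, whereas common dendritic cell progenitors are the usual source of cDC2.

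Sequences just upstream of 3 members show what was searched for in their promoters. Il7r is shown because it drives Cre in the reporter mice, Cd34 because its profile across the libraries was among the 3 most like that of Il7r, and Dntt because its reads lay almost wholly in CLP-cDC2. The windows run from 250 to 11 bases before the RefSeq start of each gene, 5′ to 3′ on the strand of the gene, in the GRCm38.p6 build. Capitals mark AGATAA, a sequence bound by GATA factors, and CANNTG, the E-box. CTTTGA, bound by TCF and LEF factors, was searched as well, all 3 on both strands, with no overlap between matches.
Il7r, chr15:9529887-9530126, minus strand: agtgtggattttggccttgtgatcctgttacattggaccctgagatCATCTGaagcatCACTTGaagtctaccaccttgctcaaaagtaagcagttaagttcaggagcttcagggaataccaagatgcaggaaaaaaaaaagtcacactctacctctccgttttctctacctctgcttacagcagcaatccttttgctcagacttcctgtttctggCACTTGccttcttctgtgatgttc
Cd34, chr1:194938571-194938810, plus strand: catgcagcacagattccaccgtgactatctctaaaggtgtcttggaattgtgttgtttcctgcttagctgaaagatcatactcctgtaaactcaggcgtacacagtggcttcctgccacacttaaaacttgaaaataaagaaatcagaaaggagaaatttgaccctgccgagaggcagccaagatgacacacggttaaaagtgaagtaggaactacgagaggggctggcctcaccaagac
Dntt, chr19:41029025-41029264, plus strand: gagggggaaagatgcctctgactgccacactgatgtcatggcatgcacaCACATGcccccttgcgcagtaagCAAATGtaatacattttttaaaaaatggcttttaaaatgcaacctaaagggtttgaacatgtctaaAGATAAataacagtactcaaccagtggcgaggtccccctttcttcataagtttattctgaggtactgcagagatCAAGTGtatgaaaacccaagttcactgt
The Il7r window held 3 E-boxes, of which the closest to the start began 34 bases before it, and the Dntt window held 3 E-boxes and 1 AGATAA. The Cd34 window held none of the 3 motifs. Of the 6 members with an entry in the RefSeq table (Il7r, Tcf7, Gata3, Dntt, Rag1 and Cd34), 4 had an E-box, 1 had AGATAA and 0 had CTTTGA, whereas 65.0%, 9.74% and 13.5% of all 32851 windows of this length held these motifs. Members were counted by gene and the shares by window, and Tcf7, with 2 windows, had its E-box in 1 of them. In the Il7r window 86 bases lie in an exon of a noncoding transcript of the same gene in the GENCODE M21 annotation. All 240 bases of the Gata3 window lie in exons of the antisense gene Gm13256. In the other Tcf7 window 67 bases lie in an exon of a protein-coding Tcf7 transcript.

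Library size, worked out from the deposited FPKM values and gene lengths, ran from 26543345 to 73732243 assigned reads, both in L-cDC2. This holds if the commonest value of FPKM times gene length is 1 read. FPKM is the number of reads per kilobase of gene, scaled to the assigned reads of the library, so levels can be compared between genes. CDP-cDC2 replicate 3 stood apart from the others on principal component 2 and M-cDC2 replicate 3 on principal component 3, and without both the members that rose were again 5 in L-cDC2 over M-cDC2 and 4 in CLP-cDC2 over CDP-cDC2. Tests were run with limma on log2(FPKM + 1) over the 14538 genes that reached 1 FPKM in at least 3 libraries, and a gene is said to have risen or fallen only where its p-value, adjusted over all those genes, was under 0.05. Of the members 6 of 8 were tested. Gata3 passed the minimum through its 3 L-cDC2 libraries alone and Cd34 through L-cDC2 and CLP-cDC2, so counts over the members are partly set by this filter, and Dntt and Rag1 did not reach it. Fewer cells of a type and less RNA per cell cannot be told apart in bulk RNA.

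**Figure D1:**
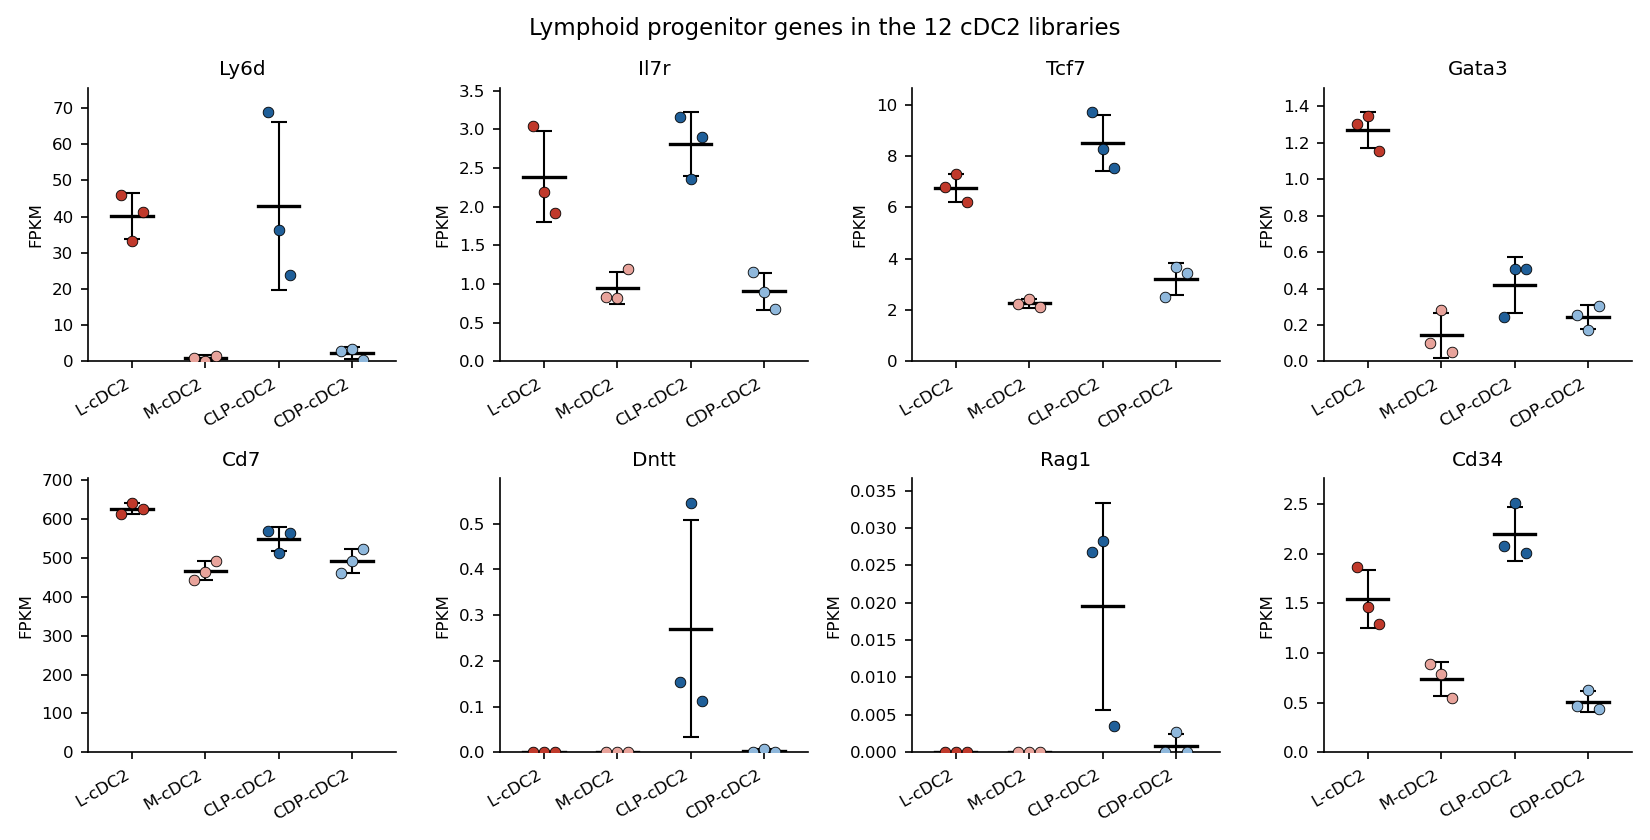
Level of each of the 8 genes in FPKM (vertical axes, each from 0) in the 12 libraries. Points are libraries, thick lines group means and whiskers SD (n = 3). For Ly6d, Il7r, Tcf7 and Cd34 every L-cDC2 and CLP-cDC2 library lay above every M-cDC2 and CDP-cDC2 library.

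Ly6d, Il7r and Tcf7 rose in the cells of lymphoid origin in both systems, that is in L-cDC2 over M-cDC2 and in CLP-cDC2 over CDP-cDC2. The mark that separates L-cDC2 from M-cDC2 records Il7r activity, so Il7r is not independent of that sort. The counts below include it, and those of L-cDC2 over M-cDC2 include Gata3, which passed the minimum through L-cDC2 alone. The members were also chosen with earlier results of these data known. The shares over all genes tested beside the counts are thus no test of enrichment. Ly6d was the furthest apart, with mean FPKM 45.9 times higher in L-cDC2 than in M-cDC2 and 18.7 times higher in CLP-cDC2 than in CDP-cDC2. The first ratio was 81.7 without M-cDC2 replicate 3 and 30.9 without M-cDC2 replicate 2. The second was 13.1 without CLP-cDC2 replicate 1 and 25.0 without CDP-cDC2 replicate 2, the extremes with 1 library left out. Il7r stood 2.51 and 3.09 times higher and Tcf7 2.99 and 2.66 times higher in the same order. Gata3 and Cd7 rose in L-cDC2 over M-cDC2, and Cd34 rose in CLP-cDC2 over CDP-cDC2. In L-cDC2 over M-cDC2 5 of the 8 members (6 tested) rose, against 1.29% of all genes tested, and 0 fell, against 0.44%. With CLP-cDC2 set against CDP-cDC2 4 of the 8 (6 tested) rose, against 7.02% of all genes tested, and 0 fell, against 6.12%. All 3 L-cDC2 libraries lay above all 3 M-cDC2 libraries for 6 members (Ly6d, Il7r, Tcf7, Gata3, Cd7 and Cd34) and for 12.7% of all genes tested, and all 3 CLP-cDC2 libraries above all 3 CDP-cDC2 libraries for 4 of these (not Gata3 and Cd7) and for 16.7%. The 3 genes that rose in both are among 33 such genes in the table (0.227% of those tested), and 4 members had no overlap between the 6 libraries of lymphoid origin and the other 6, as did 0.784% of all genes tested. The count in L-cDC2 over M-cDC2 was 3 when CDP-cDC2 replicate 2, CLP-cDC2 replicate 1, CLP-cDC2 replicate 3 or any of the 3 M-cDC2 libraries was left out, and 2 when any of the 3 L-cDC2 libraries was left out, where Gata3 no longer reached the minimum. Ly6d and Tcf7 kept their calls in all 26 alternatives in both comparisons.

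Among the surface proteins, Ly6d (ENSMUSG00000034634, chromosome 15 from 74633905 to 74635469, minus strand, coordinates as deposited) read 45.9, 33.2 and 41.2 FPKM in the 3 L-cDC2 libraries, against 0.954, 0.0273 and 1.64 FPKM in M-cDC2. In the transfer system it read 68.7, 36.4 and 23.9 FPKM in CLP-cDC2, against 2.94, 3.45 and 0.494 FPKM in CDP-cDC2. The high and low groups were far apart in both systems, and the lowest value, in M-cDC2 replicate 2, is 1 read. The log2 difference was 4.55 ± 0.45 in L-cDC2 over M-cDC2 (SE, limma adjusted p = 8.5e-05) and 3.76 ± 0.45 in CLP-cDC2 over CDP-cDC2 (adjusted p = 4.5e-04). By its mean level Ly6d stood above 87.4% of the tested genes in L-cDC2 and 7.48% in M-cDC2, and above 87.8% in CLP-cDC2 and 26.3% in CDP-cDC2.

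In the groups with little Ly6d the highest library was 60.1 times the lowest in M-cDC2 and 6.98 times in CDP-cDC2. The CLP-cDC2 libraries did not share 1 level of Ly6d either, and the highest was 2.88 times the lowest, against 1.38 times among the L-cDC2 libraries. CLP-cDC2 replicate 1, the highest, also had the most Cox6a2 of that group, a cytochrome c oxidase subunit found in plasmacytoid dendritic cells, at 56.1 FPKM against 13.07 and 13.01 in replicates 2 and 3. It also had the most Siglech, a lectin of the same cells, at 8.37 FPKM against 3.38 and 3.65, and the most Lck, a T cell kinase, at 11.1 against 5.03 and 3.92. The 11 T cell markers, Lck among them, summed to 24.1 FPKM in replicate 1, 19.7 in replicate 2 and 14.9 in replicate 3. Of these markers 3, 0 and 2 read 0 in the same order, so Lck does not stand for the whole list. Without CLP-cDC2 replicate 1 the Ly6d log2 difference of CLP-cDC2 over CDP-cDC2 was 3.36 (limma adjusted p = 0.0024). The part of such cells in the Ly6d level was not tested.

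Il7r (ENSMUSG00000003882, chromosome 15 from 9505874 to 9530262, minus strand) was a low-level gene throughout, at 3.05, 2.198 and 1.92 FPKM in L-cDC2, against 0.837, 0.823 and 1.19 FPKM in M-cDC2. It read 3.16, 2.36 and 2.91 FPKM in CLP-cDC2, against 1.16, 0.895 and 0.678 FPKM in CDP-cDC2. The groups did not overlap in either system, although the margin was narrow, since the lowest L-cDC2 library was at 1.92 FPKM and the highest M-cDC2 library at 1.19. The log2 difference was 0.79 ± 0.18 in L-cDC2 over M-cDC2 (SE, limma adjusted p = 0.039) and 0.999 ± 0.18 in CLP-cDC2 over CDP-cDC2 (adjusted p = 0.0035). Of these the second was called in all 25 alternatives that tested it, while the first was lost in 16 of 25, with adjusted p up to 0.32. In the reporter mice the gene is also the one that carries Cre, and whether the Cre allele changes its own RNA was not tested. L-cDC2 and M-cDC2 were sorted by a mark that records Il7r activity, so the Il7r difference between them is not independent of the sort.

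Cd7 (ENSMUSG00000025163, chromosome 11 from 120927573 to 120930244, minus strand), an immunoglobulin-family receptor of T and NK cells, was of another order of abundance, above 99.1 to 99.3% of tested genes in every group. It read 612.6, 641.2 and 625.4 FPKM in L-cDC2, against 444.4, 465.1 and 493.0 FPKM in M-cDC2. Its level was 568.3, 512.8 and 565.1 FPKM in CLP-cDC2, against 461.2, 493.1 and 523.8 FPKM in CDP-cDC2. All 3 L-cDC2 libraries lay above all 3 M-cDC2 libraries, while CLP-cDC2 and CDP-cDC2 overlapped. The log2 difference was 0.42 ± 0.09 in L-cDC2 over M-cDC2 (SE, limma adjusted p = 0.037), a call lost in 16 of 26 alternatives with adjusted p up to 0.49. In CLP-cDC2 over CDP-cDC2 it was 0.16 (95% interval -0.05 to 0.36, adjusted p = 0.30). Exons of Cd7 overlap those of Gm11775, a noncoding gene on the opposite strand, which read 216.0 to 245.7 FPKM in L-cDC2 and 155.2 to 175.4 FPKM in M-cDC2, and reads of the 2 genes cannot be told apart without knowing the strand setting of the counting (not given in the sources used here).

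Cd34 (ENSMUSG00000016494, chromosome 1 from 194621127 to 194643587, plus strand), a sialomucin of blood progenitors, read 1.87, 1.46 and 1.30 FPKM in L-cDC2, against 0.885, 0.788 and 0.550 FPKM in M-cDC2. It read 2.08, 2.51 and 2.01 FPKM in CLP-cDC2, against 0.471, 0.631 and 0.432 FPKM in CDP-cDC2. The groups did not overlap in either system. In CLP-cDC2 over CDP-cDC2 the log2 difference was 1.08 ± 0.16 (SE, limma adjusted p = 0.0011), a ratio of mean FPKM of 4.30, called in all 25 alternatives that tested it. In L-cDC2 over M-cDC2 it was 0.54 ± 0.16 with an adjusted p of 0.16 in limma, and it passed the threshold in 1 alternative, limma with array weights (adjusted p = 0.021). A noncoding gene on the opposite strand, Gm16897, overlaps its exons and was highest in the same 2 groups, at 0.376 to 0.492 FPKM in L-cDC2 and 0.467 to 0.748 FPKM in CLP-cDC2, against 0.187 to 0.369 FPKM in M-cDC2 and 0.118 to 0.222 FPKM in CDP-cDC2.

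**Figure D2:**
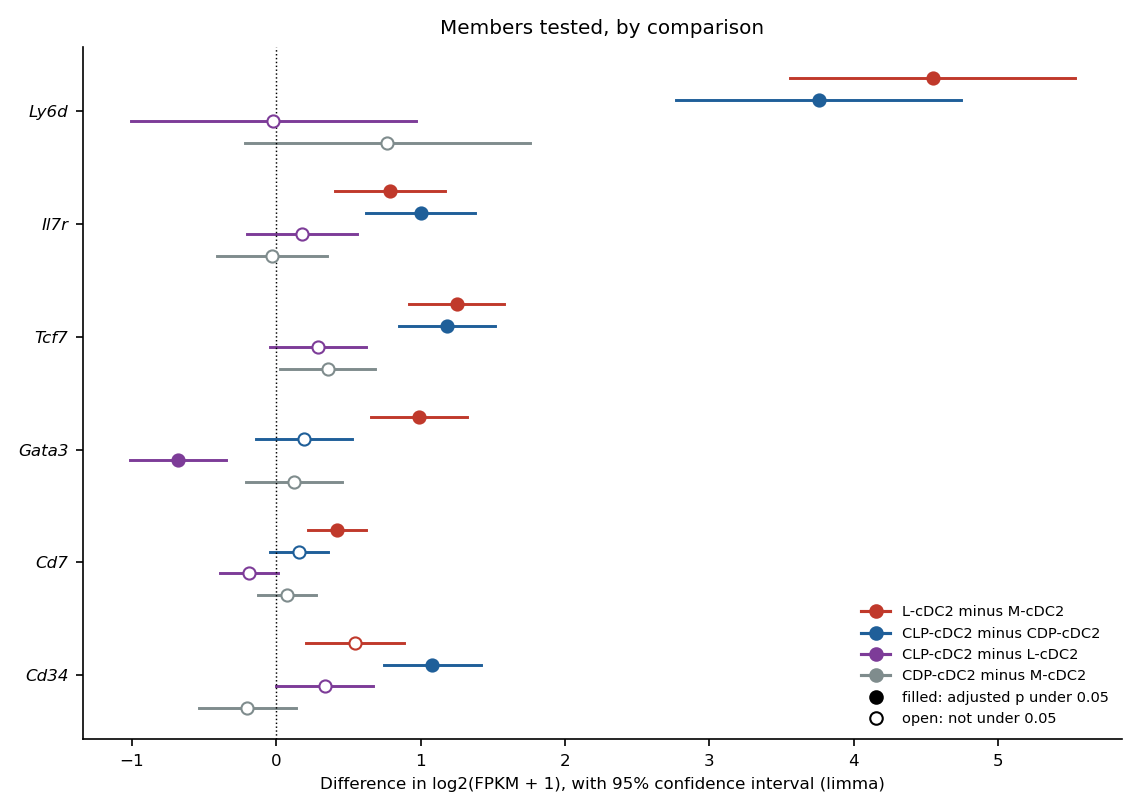
Difference in log2(FPKM + 1) (horizontal axis) for the 6 genes tested, with unadjusted 95% confidence intervals from limma, in 4 comparisons. Filled points passed an adjusted p of 0.05. Ly6d lay furthest from 0, at 4.55 in L-cDC2 over M-cDC2 and 3.76 in CLP-cDC2 over CDP-cDC2, and Gata3 was the one gene that passed in CLP-cDC2 over L-cDC2, where it was lower.

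Of the transcription factors, Tcf7 (ENSMUSG00000000782, chromosome 11 from 52143198 to 52174158, minus strand) was the steadiest of the genes that rose in both systems. It read 6.79, 7.29 and 6.20 FPKM in L-cDC2, against 2.23, 2.45 and 2.11 FPKM in M-cDC2. It read 9.695, 8.28 and 7.54 FPKM in CLP-cDC2, against 2.49, 3.69 and 3.43 FPKM in CDP-cDC2. The highest library of a group was at most 1.48 times its lowest, and neither pair of groups overlapped. The log2 difference was 1.25 ± 0.15 in L-cDC2 over M-cDC2 (SE, limma adjusted p = 4.4e-04) and 1.18 ± 0.15 in CLP-cDC2 over CDP-cDC2 (adjusted p = 6.4e-04).

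Gata3 (ENSMUSG00000015619, chromosome 2 from 9861889 to 9894845, minus strand) read 1.30, 1.34 and 1.16 FPKM in L-cDC2, against 0.1004, 0.283 and 0.0495 FPKM in M-cDC2. In the transfer system it read 0.244, 0.510 and 0.506 FPKM in CLP-cDC2, against 0.254, 0.170 and 0.302 FPKM in CDP-cDC2. L-cDC2 stood alone, above all 9 other libraries, and CLP-cDC2 overlapped CDP-cDC2. The log2 difference was 0.99 ± 0.15 in L-cDC2 over M-cDC2 (SE, limma adjusted p = 0.0029) and 0.19 in CLP-cDC2 over CDP-cDC2 (95% interval -0.14 to 0.52, adjusted p = 0.46). The first was called in all 22 alternatives that tested it. Gata3 passed the minimum for testing through L-cDC2 alone, so it went untested without any 1 L-cDC2 library or with a minimum of 5 FPKM. Its call in L-cDC2 over M-cDC2 is thus partly set by the filter. Gm13256, a noncoding gene that overlaps its exons on the opposite strand, read 0.652 to 0.992 FPKM in L-cDC2, against 0.0379 to 0.0586 FPKM in M-cDC2, and 0.105 to 0.113 FPKM in CLP-cDC2, against 0 to 0.105 FPKM in CDP-cDC2.

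The recombination enzymes were seen at a few reads. Dntt (ENSMUSG00000025014, chromosome 19 from 41017714 to 41047964, plus strand) had 12, 57 and 11 reads in the CLP-cDC2 libraries, or 0.154, 0.545 and 0.113 FPKM, against 0, 1 and 0 reads in CDP-cDC2. It had 0 reads in every L-cDC2 and M-cDC2 library, and a count of 0 over a group allows up to 3 reads. All CLP-cDC2 libraries were thus above all others. Per assigned read, the 80 reads in CLP-cDC2 and 1 in CDP-cDC2 give a ratio of 87.5, with an exact 95% Poisson interval of 15.3 to 3497 that covers counting error only, and Dntt was at least 29.8-fold higher in CLP-cDC2 than in L-cDC2. CLP-cDC2 replicate 2 held 71.2% of the Dntt reads. Without it 23 reads remained, the ratio over CDP-cDC2 was 40.2 (exact Poisson 95% interval 6.52 to 1654) and the bound over L-cDC2 was 13.7-fold. Without CDP-cDC2 replicate 2 that group had 0 reads, and Dntt was at least 16.9-fold higher in CLP-cDC2 than in CDP-cDC2. When genes of any level were tested, the log2 difference of CLP-cDC2 over CDP-cDC2 was 0.33 (limma adjusted p = 0.14).

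Rag1 (ENSMUSG00000061311, chromosome 2 from 101468627 to 101479846, minus strand) was lower still, with 6, 8.5 and 1 reads in CLP-cDC2, against 0, 1 and 0 reads in CDP-cDC2, fractions of a read being as deposited. It had 0 reads in the L-cDC2 and M-cDC2 libraries. Its lowest CLP-cDC2 library, replicate 3, had the same 1 read as CDP-cDC2 replicate 2, so these counts are at the limit of the depth. The ratio of CLP-cDC2 over CDP-cDC2 was 16.9 (exact Poisson 95% interval 2.72 to 734), or at least 3.27 without CDP-cDC2 replicate 2, and with genes of any level tested the adjusted p was 0.17 in limma. Its exons overlap those of Iftap on the same strand, a gene at 1.84 to 4.52 FPKM. Rag2, its partner in the recombinase, had 31.5, 1 and 0 reads in CLP-cDC2, so its reads lay in replicate 1 and those of Dntt mainly in replicate 2.

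The stated question sets CLP-cDC2 beside L-cDC2. Between these groups 1 of the 8 members (6 tested) fell and 0 rose in CLP-cDC2, where 6.32% of all genes tested fell and 4.29% rose. The member was Gata3, at 0.420 ± 0.152 FPKM in CLP-cDC2 and 1.27 ± 0.0987 FPKM in L-cDC2 (SD, n = 3 each), or -0.68 ± 0.15 on the log2 scale (SE, limma adjusted p = 0.015). The adjusted p was 0.060 without CLP-cDC2 replicate 1 and 0.083 with a pseudocount of 0.1. Gata3 passed the minimum for testing through L-cDC2 alone. Ly6d averaged 43.0 ± 23.2 FPKM in CLP-cDC2 and 40.1 ± 6.41 FPKM in L-cDC2, a difference of -0.02 whose 95% interval of -1.01 to 0.97 leaves room for either sign. For Il7r the difference was 0.18 (-0.20 to 0.56, adjusted p = 0.56). Tcf7 (0.29, interval -0.04 to 0.62, adjusted p = 0.25) and Cd34 (0.34, interval -0.00 to 0.67, adjusted p = 0.19) lay higher in every CLP-cDC2 library than in any L-cDC2 library, and Cd7 lower (-0.19, interval -0.39 to 0.01, adjusted p = 0.20), without passing the test. Libraries of these 2 groups were fully apart, upward or downward, for 17.8% and 17.9% of all genes tested. Dntt and Rag1 were not tested. Dntt had 12, 57 and 11 reads in CLP-cDC2 and 0 in every L-cDC2 library, a difference of at least 29.8-fold. Rag1 had 6, 8.5 and 1 reads in CLP-cDC2 and 0 in every L-cDC2 library, at the limit of the depth. The 2 groups differ in mouse line, host and transfer as well as in how lineage was traced, and these cannot be told apart.

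Between CDP-cDC2 and M-cDC2, the groups of myeloid origin, 0 members were called by limma in either direction, against 1.62% of all genes tested higher and 0.956% lower, with 1 member (Tcf7) at an unadjusted p under 0.05 and 0 called by voom. Tcf7 was higher in every CDP-cDC2 library than in any M-cDC2 library, as were 14.5% of all genes tested, at 3.20 ± 0.630 FPKM in CDP-cDC2 and 2.26 ± 0.170 FPKM in M-cDC2 (SD, n = 3 each), a log2 difference of 0.36 (95% interval 0.02 to 0.69, limma adjusted p = 0.22). Ly6d averaged 2.296 ± 1.58 FPKM in CDP-cDC2 and 0.874 ± 0.810 FPKM in M-cDC2, with overlapping libraries, a difference of 0.77 (interval -0.22 to 1.75, adjusted p = 0.37). Il7r was at 0.910 ± 0.239 FPKM in CDP-cDC2 and 0.950 ± 0.208 FPKM in M-cDC2.

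Whether the lineage effect itself differed between the systems was tested as CLP-cDC2 over CDP-cDC2 minus L-cDC2 over M-cDC2. Gata3 passed, at -0.80 ± 0.22 (SE, limma adjusted p = 0.0487), that is with a smaller effect in the transfer system, where 3.61% of all genes tested had a lower and 2.38% a higher effect. This call was lost in 17 of the 21 alternatives that tested it, and without each of the 12 libraries in turn it was either lost or not tested. For Ly6d the difference was -0.79 (95% interval -2.18 to 0.60, adjusted p = 0.48), for Il7r 0.21 (-0.33 to 0.75, adjusted p = 0.64), for Tcf7 -0.07 (-0.53 to 0.40, adjusted p = 0.88), for Cd7 -0.27 (-0.55 to 0.02, adjusted p = 0.23) and for Cd34 0.54 (0.06 to 1.01, adjusted p = 0.15).

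In the list of interleukin-7 receptor signalling, which holds the common gamma chain, kinases, Stat5 factors, their targets and the ligands, 0 of the 12 tested of 15 genes were called in L-cDC2 over M-cDC2 by limma (1 at an unadjusted p under 0.05, 0 by voom). The median log2 difference was 0.15, against 0.04 over all genes tested, of which 1.29% rose and 0.44% fell. Between CLP-cDC2 and CDP-cDC2 0 rose and 2 fell, with a median of -0.48 against -0.01 over all genes tested. Of those genes 7.02% rose and 6.12% fell. Mcl1, a survival factor of the Bcl2 family, was at 26.5 ± 5.32 FPKM in CLP-cDC2 and 63.1 ± 18.1 FPKM in CDP-cDC2 (-1.201 ± 0.20, limma adjusted p = 0.0026). Pim1, a kinase induced by Stat5, was at 13.2 ± 3.95 FPKM in CLP-cDC2 and 21.8 ± 1.36 FPKM in CDP-cDC2 (-0.71, adjusted p = 0.029), a call lost without CLP-cDC2 replicate 1, CLP-cDC2 replicate 2 or CDP-cDC2 replicate 3. Il2rg, the common gamma chain, was abundant throughout, at 225.0 ± 25.7 FPKM in CLP-cDC2 and 276.1 ± 50.9 FPKM in CDP-cDC2, and 260.4 ± 20.6 FPKM in L-cDC2 and 288.3 ± 2.62 FPKM in M-cDC2, and was called in neither.

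Of 25 early lymphoid transcription factors 15 were tested. In L-cDC2 over M-cDC2 2 rose and 0 fell, with a median of 0.29, where 1.29% of all genes tested rose and 0.44% fell. Ets1, a factor of T, B and NK cells, was at 3.20 ± 0.613 FPKM in L-cDC2 and 0.632 ± 0.0308 FPKM in M-cDC2 (1.36 ± 0.17, limma adjusted p = 6.3e-04), and Ikzf3, a factor of B cells, was at 1.59 ± 0.286 FPKM in L-cDC2 and 0.284 ± 0.167 FPKM in M-cDC2 (1.02 ± 0.17, adjusted p = 0.0043). Ikzf3 no longer reached the minimum for testing when any of the 3 L-cDC2 libraries was left out. When CLP-cDC2 were set against CDP-cDC2 1 rose and 4 fell, with a median of -0.21. Over all genes tested 7.02% rose and 6.12% fell. Id2, an inhibitor of E proteins needed by dendritic and innate lymphoid cells, was at 426.4 ± 29.2 FPKM in CLP-cDC2 and 263.8 ± 92.3 FPKM in CDP-cDC2 (0.74, limma adjusted p = 0.021), a call lost without replicate 1 or 2 of CLP-cDC2 or replicate 2 or 3 of CDP-cDC2. Hes1, a Notch target, was at 2.39 ± 0.780 FPKM in CLP-cDC2 and 15.4 ± 10.6 FPKM in CDP-cDC2 (-2.08, adjusted p = 0.0041). Foxo1, which acts upstream of Il7r in lymphocytes, fell by 0.99 on the log2 scale in CLP-cDC2 (adjusted p = 0.0022), Id3, a further E protein inhibitor, by 1.06 (adjusted p = 0.0072) and Runx1, a factor of blood progenitors, by 0.80 (adjusted p = 0.0050). Pax5 and Ebf1, the factors of B cell commitment, stayed under the minimum for testing, with Ebf1 at 0.249 ± 0.0341 FPKM in L-cDC2 and 0.0101 ± 0.00514 FPKM in M-cDC2.

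The 3 remaining lists were small. Over all genes tested 1.29% rose and 0.44% fell in L-cDC2 over M-cDC2, and 7.02% and 6.12% in CLP-cDC2 over CDP-cDC2. Among recombination and surrogate receptor genes 7 of 13 were tested. In L-cDC2 over M-cDC2 0 were called by limma (1 at an unadjusted p under 0.05, 0 by voom), and in CLP-cDC2 over CDP-cDC2 Xrcc6, a DNA end-binding subunit, rose by 0.67 (limma adjusted p = 0.0084). The medians were 0.15 in L-cDC2 over M-cDC2 and 0.36 in CLP-cDC2 over CDP-cDC2. Among progenitor surface genes 7 of 12 were tested. In L-cDC2 over M-cDC2 0 were called by limma (1 at an unadjusted p under 0.05, 0 by voom). Here the medians were -0.04 in L-cDC2 over M-cDC2 and 0.31 in CLP-cDC2 over CDP-cDC2. Flt3, a receptor of both lymphoid and dendritic progenitors, averaged 92.6 FPKM in L-cDC2 and 95.4 FPKM in M-cDC2, and 101.7 FPKM in CLP-cDC2 and 101.5 FPKM in CDP-cDC2.

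Of the 5 tested of 12 relatives of Ly6d, Ly6k rose in CLP-cDC2 to 1.51 ± 0.274 FPKM, against 0.0189 ± 0.00964 FPKM in CDP-cDC2 (1.29, limma adjusted p = 0.0017). Ly6i fell in both comparisons, by 1.15 in L-cDC2 (limma adjusted p = 0.021) and by 0.77 in CLP-cDC2 (adjusted p = 0.048). The first call was lost when any of the 3 L-cDC2 or any of the 3 M-cDC2 libraries was left out, and the second was lost in 17 of 26 alternatives. Ly6 genes have similar sequences, and how reads that match several of them were counted was not analysed here. The median of the family was 0.51 in L-cDC2 over M-cDC2 and 0.32 in CLP-cDC2 over CDP-cDC2.

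**Figure D3:**
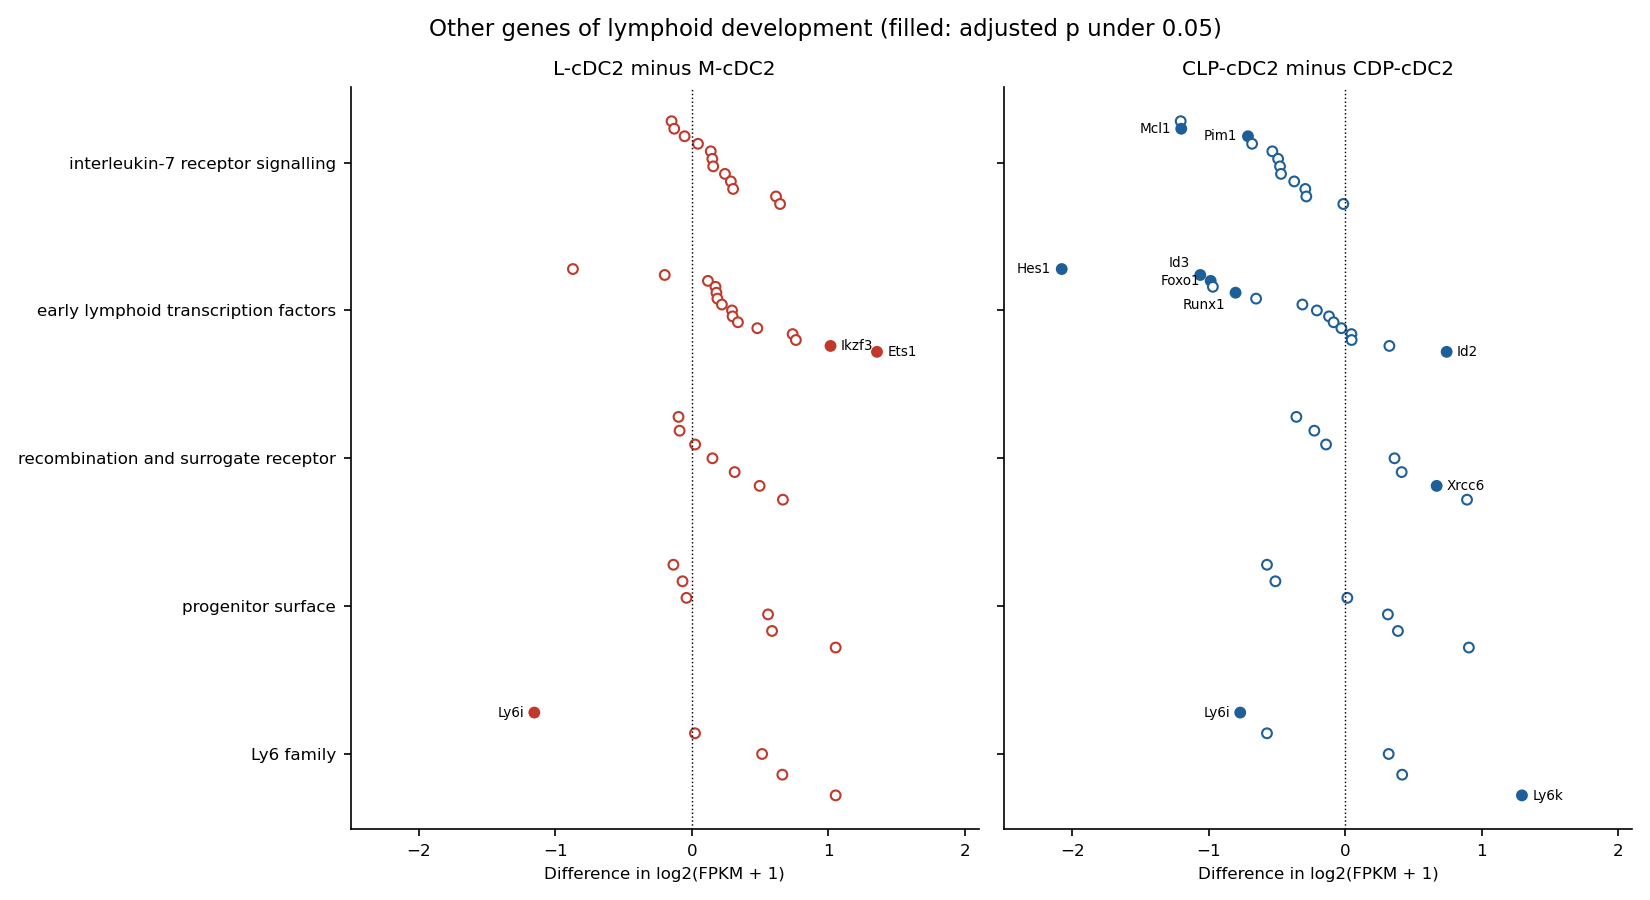
Difference in log2(FPKM + 1) (horizontal axis) for tested genes of 5 lists, with L-cDC2 over M-cDC2 on the left and CLP-cDC2 over CDP-cDC2 on the right. Each point is a gene, filled and named where the adjusted p was under 0.05. Interleukin-7 receptor signalling genes had 0 filled points on the left and 2, both below 0, on the right.

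Markers of mature lymphocytes moved with the members in the reporter mice. All 3 L-cDC2 libraries had more of each lymphocyte marker list than any M-cDC2 library. The summed level of 11 T cell markers was 36.7 to 46.2 FPKM in L-cDC2 and 7.52 to 9.68 FPKM in M-cDC2, that of 12 B cell markers 1619 to 2348 FPKM in L-cDC2 and 435.3 to 459.6 FPKM in M-cDC2, and that of 12 NK cell and innate lymphoid markers 345.3 to 434.0 FPKM in L-cDC2 and 85.1 to 129.8 FPKM in M-cDC2. Of the tested markers 4 of 6, 7 of 9 and 9 of 11 rose in these lists in L-cDC2 over M-cDC2 and 0 fell, with median log2 differences of 1.77, 1.31 and 2.42. Over all genes tested 1.29% rose and 0.44% fell. Without any 1 of the 3 L-cDC2 libraries 3 of 5 tested NK cell and innate lymphoid markers rose, and 3 of 5 tested T cell markers. The remaining markers of these lists had passed the minimum for testing through L-cDC2 alone. The counts and medians of both lists are thus partly set by the filter. Cd79a, a chain of the B cell receptor complex, was at 57.8, 51.8 and 50.9 FPKM in L-cDC2, against 0.594, 0.139 and 0.297 FPKM in M-cDC2, whereas Cd3e, a chain of the T cell receptor complex, was at most 0.150 FPKM in L-cDC2 and at 0 in all M-cDC2 libraries. The part of such cells in the levels of the members was not tested.

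In CLP-cDC2 the same lists lay lower than in L-cDC2. The T cell markers summed to 14.9 to 24.1 FPKM in CLP-cDC2 and 10.2 to 13.0 FPKM in CDP-cDC2, the B cell markers to 457.2 to 1037 FPKM in CLP-cDC2 and 380.3 to 439.8 FPKM in CDP-cDC2, and the NK cell and innate lymphoid markers to 156.8 to 210.1 FPKM in CLP-cDC2 and 126.0 to 167.8 FPKM in CDP-cDC2. Of the tested ones 2 of 6, 5 of 9 and 1 of 11 rose in CLP-cDC2 over CDP-cDC2 and 0 fell, with medians of 0.35, 0.62 and 0.27. Over all genes tested 7.02% rose and 6.12% fell, so the NK cell and innate lymphoid count was near that share. The B cell count was 2 or 3 when any library other than CDP-cDC2 replicate 2, M-cDC2 replicate 1 or M-cDC2 replicate 3 was left out, and the T cell count was 1 without replicate 1 or 2 of CLP-cDC2 or replicate 1 or 3 of CDP-cDC2. Between CLP-cDC2 and L-cDC2 4 of 6, 6 of 9 and 10 of 11 fell in CLP-cDC2, and 0, 0 and 1 rose. Over all genes tested 6.32% fell and 4.29% rose. The T cell and NK cell counts include markers that passed the minimum for testing through L-cDC2 alone. These falls are thus partly set by the filter. Cd79a was at 0.172, 3.51 and 0.606 FPKM in CLP-cDC2 and 0.329, 1.24 and 1.001 FPKM in CDP-cDC2. CLP-cDC2 replicate 2, with the most Cd79a of its group, also had 429 FPKM of Igkc, the kappa light chain constant region, against 20.1 and 28.5 FPKM in replicates 1 and 3. Without CLP-cDC2 replicate 2 the log2 differences of CLP-cDC2 over CDP-cDC2 were 3.81 for Ly6d, 1.09 for Il7r, 1.197 for Tcf7 and 1.01 for Cd34, all still called by limma. The part of lymphocytes in the levels of the members was not tested in the transfer system either.

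**Figure D4:**
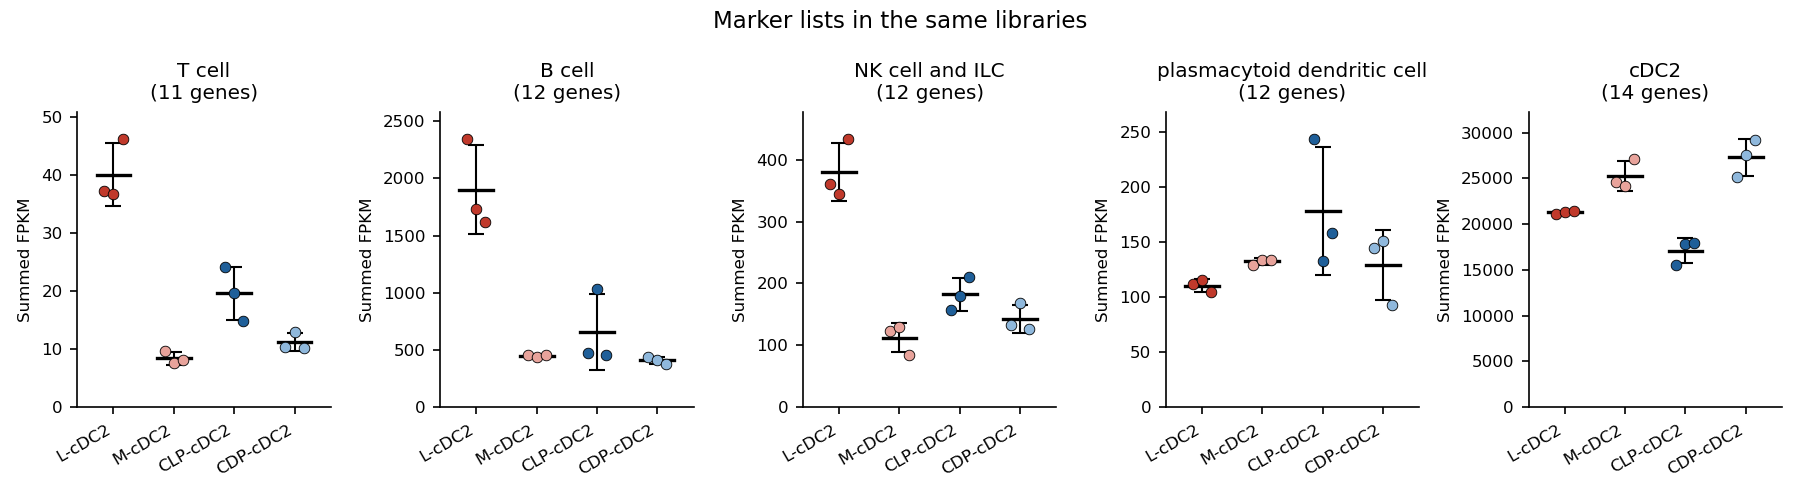
Summed FPKM (vertical axes, each from 0) of 5 marker lists in the 12 libraries. Points are libraries, thick lines group means and whiskers SD (n = 3). The B cell, T cell and NK cell lists were highest in the 3 L-cDC2 libraries, and the cDC2 list lowest in CLP-cDC2.

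Markers of plasmacytoid dendritic cells, which also carry Ly6d in mice, summed to 104.2 to 115.6 FPKM in L-cDC2 and 128.9 to 134.1 FPKM in M-cDC2, and 1 of 9 tested rose and 1 fell. In the transfer system they summed to 132.5 to 243.8 FPKM in CLP-cDC2 and 93.0 to 151.3 FPKM in CDP-cDC2, and 2 rose and 0 fell, with 1 risen without CLP-cDC2 replicate 2 and 4 without CDP-cDC2 replicate 2. The medians were 0.14 in L-cDC2 over M-cDC2 and 0.41 in CLP-cDC2 over CDP-cDC2. The cDC2 markers were abundant in every library, from 21168 to 21452 FPKM in L-cDC2 and 24154 to 27112 FPKM in M-cDC2, and from 15502 to 17950 FPKM in CLP-cDC2 and 25193 to 29208 FPKM in CDP-cDC2. Of the 14 tested, 1 rose and 1 fell in L-cDC2 over M-cDC2, while 0 rose and 10 fell in CLP-cDC2 over CDP-cDC2, with medians of 0.23 and -0.89. Beside both lists, 1.29% of all genes tested rose and 0.44% fell in L-cDC2 over M-cDC2. In CLP-cDC2 over CDP-cDC2 7.02% rose and 6.12% fell. Zbtb46, a factor of conventional dendritic cells, was at 8.59 ± 0.837 FPKM in CLP-cDC2 and 18.2 ± 5.89 FPKM in CDP-cDC2 (SD, n = 3 each, log2 difference -0.96, limma adjusted p = 0.0071).

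The genes with the profile most like each member were found by the root mean square difference of the centred log2(FPKM + 1) values over the 12 libraries, among protein-coding genes of at least 1 FPKM on average. Predicted genes and segments of antigen receptor genes were left out of that search. The median gene given beside them is that of all genes tested. Ly6d was nearest to Lck (1.09), which is also in the T cell list, to Gal (1.26), the neuropeptide galanin, and to Ctsw (1.27), a protease of cytotoxic cells, where the median gene was at 2.17. Il7r was nearest to Macroh2a2 (0.181), Rhod (0.202) and Cd34 (0.205), where the median gene was at 0.537, and Cd34 to Cep57l1 (0.157), Arhgef39 (0.176) and Ncapg (0.186), where it was at 0.510. Tcf7 was nearest to Blnk (0.233), Nrgn (0.235) and Atp1b1 (0.238), which is also in the plasmacytoid dendritic cell list, with the median gene at 0.677. Gata3 was nearest to Bank1 (0.136), Appl2 (0.177) and Sh3bp5 (0.182), with the median gene at 0.472, and Cd7 to Txndc12 (0.0949), Dele1 (0.108) and Rnf214 (0.109), with the median gene at 0.315.

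Ranked by mean level, the members kept a similar order in the 4 groups. Cd7 was the highest in each, followed by Ly6d and Tcf7 in L-cDC2 and CLP-cDC2 and by Tcf7 and then Ly6d or Il7r in CDP-cDC2 and M-cDC2. In M-cDC2 Ly6d (0.874 ± 0.810 FPKM), Il7r (0.950 ± 0.208 FPKM) and Cd34 (0.741 ± 0.173 FPKM) did not differ beyond their spread. Over the groups, Ly6d, Il7r, Tcf7 and Cd34 had their highest mean FPKM in CLP-cDC2, and for Ly6d and Il7r the libraries of CLP-cDC2 and L-cDC2 overlapped. None of these genes was called by limma between CLP-cDC2 and L-cDC2. Gata3 and Cd7 were highest in L-cDC2, and Dntt and Rag1 were highest in CLP-cDC2.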

How the data were processed

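RNA-seq libraries (SMART-Seq HT and Nextera XT, per the labels' protocols) covered 12 samples in 4 groups. The authors deposited 1 table of FPKM. STAR 2.7.9a, featureCounts 2.0.1, DESeq2 1.20.0, cutadapt 3.7, Trimmomatic 0.39 and Trim Galore 0.6.7, and the builds GRCh38 and GRCm38, are named without roles per the submitters' processing notes. Of 52046 gene identifiers shared with GENCODE M21 (GRCm38), 1462 had the same chromosome and start, so the build of the deposited coordinates is not given. Depth was recovered by taking the commonest value of FPKM times gene length in a library as 1 read, refined on low values near a whole number of reads. On this scale all values above 0 that were checked, which left out the highest, were multiples of 0.01 read (tolerance 0.02 steps).

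Values were taken as log2(FPKM + 1), which understates changes of low genes, for genes that reached 1 FPKM in 3 or more libraries. Two-sided tests came from limma 3.58.1 in R 4.3.3 (eBayes with a trend, with version 1.17.8 of the data.table package), which fitted 4 group means to 12 libraries (8 residual degrees of freedom), with Benjamini-Hochberg adjustment over all 14538 genes. The limma fit was also run on simulated reads of 1 depth for all libraries, in which only genes with many reads were changed. That run does not bear on low members such as Gata3, Dntt and Rag1. Figures used Python 3.11.15, matplotlib 3.10.9 and pandas 2.3.3. The 8 members and the 10 other gene lists were chosen with earlier results of these data known. All members are described, and of the 5 pathway lists the genes called in a lineage comparison are named (some genes taken by this rule are not reported here), with a few others for context (Il2rg, Flt3, Rag2 and Ebf1) chosen after their values were seen. Alternatives were other pseudocounts (0.1 and 5), filters, scalings, array weights, no trend, replicate blocks, 2 groups alone, protein-coding genes alone, voom on recovered reads, and libraries left out. The floor was 3 reads, for counting error only. No 2 libraries of a group held equal values.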

Additional observations from a re-analysis of the deposited data

Results flagged for a closer look

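Gata3 is the member whose lineage effect differed between the systems by a test of the difference itself. The log2 difference was 0.19 in CLP-cDC2 over CDP-cDC2 and 0.99 in L-cDC2 over M-cDC2, so that the first minus the second was -0.80 (limma adjusted p = 0.0487). In the reporter mice 3 of 3 L-cDC2 libraries lay above all M-cDC2 libraries. The call is close to the threshold, and over the alternatives that tested it the adjusted p ran from 0.017 to 0.14. Gata3 reached the minimum for testing through L-cDC2 alone, and the lymphocyte marker lists were also highest in L-cDC2. Their part in the difference was not tested.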

How the results depend on the processing

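In L-cDC2 over M-cDC2 the number of members that rose was 5, and it was 3 without a filter, with a minimum of 5 FPKM (3 members tested), after quantile normalization and with TMM factors, and 2 to 5 with 1 library left out. Il7r and Cd7 account for these losses, with Gata3 where it was not tested. In CLP-cDC2 over CDP-cDC2 the number was 4, and it was 2 with a minimum of 5 FPKM and 4 without any 1 library. For the difference between the systems the number was 1, and it was 0 with a pseudocount of 0.1, without a filter, with a minimum of 5 FPKM, after quantile normalization, with TMM factors, without both of M-cDC2 replicate 3 and CDP-cDC2 replicate 3, the libraries that stood apart on principal components 2 and 3, and without any 1 library. With array weights it was again 1, but the gene was Ly6d (-1.76, limma adjusted p = 0.039). In CLP-cDC2 over L-cDC2 the number was 1, and it was 0 with a pseudocount of 0.1 and with a minimum of 5 FPKM and 0 to 1 with 1 library left out. In CDP-cDC2 over M-cDC2 the number was 0, and it was 1 with array weights, Ly6d at 1.73 (adjusted p = 0.0064). The cause was not tested.

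The values that changed sign were uncalled. They were Cd7 in CLP-cDC2 over CDP-cDC2 after quantile normalization (-0.042) and in CDP-cDC2 over M-cDC2 with TMM factors (-0.023). Tcf7 in the difference between the systems was 0.025 with a pseudocount of 5, 0.15 after quantile normalization, 0.025 with TMM factors, 0.010 without the same 2 libraries and -0.19 to 0.019 with 1 library left out. Ly6d in CLP-cDC2 over L-cDC2 was 0.0018 with TMM factors and -0.42 to 0.33 with 1 library left out. Il7r in CDP-cDC2 over M-cDC2 was 0.065 with array weights, 0.14 without the same 2 libraries and -0.12 to 0.057 with 1 library left out, and Gata3 there was -0.048 with array weights.

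A replicate block, with the number shared across all groups or within each system, gave 3 members in L-cDC2 over M-cDC2, with Il7r and Cd7 lost (adjusted p = 0.064 to 0.13), 4 in CLP-cDC2 over CDP-cDC2 and 0 for the difference. The labels do not say that numbers pair samples. Same-numbered libraries correlated at -0.22 to 0.13 (L-cDC2 with M-cDC2) and -0.03 to 0.28 (CLP-cDC2 with CDP-cDC2), and 1 of 6 and 3 of 6 libraries correlated best with their own number. Of the list genes named, Id2 and Xrcc6 were called in 19 and 25 of 26 alternatives, Pim1 in 18, Ly6i in 18 (L-cDC2 over M-cDC2) and Ikzf3 in 21 of 22, while Ets1, Mcl1, Foxo1, Runx1, Hes1, Id3 and Ly6k were called in every one that tested them. Depth limits Dntt and Rag1, seen at 80 and 15.5 reads in CLP-cDC2. The ratios of mean FPKM and of reads with 1 library left out were added after seeing the data.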
